A study of Sus scrofa with 12 samples.

Results

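Liver miRNA of Hezuo pigs was compared with that of Bama pigs, both kept at a normal temperature of 23 ± 2 °C and labelled day 15. The comparison takes 6 of the 12 small RNA libraries of the study, Hezuo normal 1 to 3 and Bama normal 1 to 3, and all 774 miRNA entries of the deposited table. Hezuo and Bama are Chinese pig breeds of small body size. The other 6 libraries come from livers of both breeds under cold at -15 ± 2 °C, also labelled day 15, and are used here to set the breed difference under cold beside that at normal temperature. They also enter the fit, so they share its scaling, filter and estimate of the spread. Neither breed carried a transgene or received an agent according to the labels, and feed and housing other than temperature are described in the same words for all groups. Pigs are numbered 1 to 3 in each group, and it is not stated whether the numbers stand for the same animals at both temperatures. For sex, age, litter, batch and sequencing instrument, the sources used here give nothing. Whether such a factor moves with breed cannot be told apart from breed, and the p-values measure only the spread between these libraries.

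A miRNA is a short RNA cut from a hairpin precursor, usually from its 5p or its 3p arm, and it guides Argonaute proteins to partly complementary mRNAs, which are then repressed. Pairing runs mainly through the seed, bases 2 to 8 of the mature strand, so miRNAs with the same seed are counted as a family. Many mature strands also occur in forms that are a few bases longer or shorter at the 3′ end, through imprecise cutting, trimming or added bases. Hepatocytes hold miR-122 in great excess over other miRNAs.

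The mature sequences of the entries on which the comparison turns are given as the deposited table lists them, in DNA letters and 5′ to 3′, with the seed in capitals. The first set shows miR-204 in its 22-nt form, a 24-nt form of it, and the strand from the opposite arm, which has another seed.
ssc-miR-204: tTCCCTTTgtcatcctatgcct
miR-204-x: tTCCCTTTgtcatcctatgcctgt
miR-204-y: gCTGGGAAggcaaagggacgt

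The second set shows forms that differ only in length at the 3′ end, for miR-192, miR-101 and miR-30a-5p, with the called form last in each.
ssc-miR-192: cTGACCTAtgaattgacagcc
miR-192-x: cTGACCTAtgaattgacagccat
miR-192-z: cTGACCTAtgaattgacagccatt
ssc-miR-101: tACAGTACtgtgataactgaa
miR-101-y: tACAGTACtgtgataactgaagt
ssc-miR-30a-5p: tGTAAACAtcctcgactggaag
miR-30-x: tGTAAACAtcctcgactggaagca

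The third set shows 4 of the 5 entries that were lower in Hezuo, and beside miR-450c-5p its relative miR-450a, which differs from it at 1 of 22 bases.
ssc-miR-184: tGGACGGAgaactgataagggt
ssc-miR-9843-3p: tCTGTGAActagaaacctctgg
ssc-miR-455-5p: tATGTGCCtttggactacatcg
ssc-miR-450c-5p: tTTTGCGAtgtgttcctaatac
ssc-miR-450a: tTTTGCGAtgtgttcctaatat

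The fourth set shows the remaining entries that were higher in Hezuo, among them 2 predicted miRNAs, given without the word that opens their names in the table.
miR-508-y: aCTGTCACctttttgagtaga
ssc-miR-182: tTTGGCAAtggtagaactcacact
ssc-miR-1388: aGGACTGTcaaacctgagaatg
miR-340-x: tTATAAAGcaatgagactgaaa
m0017-3p: tTCCCATTgagactgagcatct
m0043-5p: tCCTAGAGctggagagactttgt

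The listed miRNA counts came to 8357067 to 10384074 per Hezuo library and to 7376256 to 7640451 per Bama library, and 655 to 694 entries had counts in a library. Hezuo normal 3 stood apart in composition. Its TMM factor, the scaling that edgeR derives from the bulk of the entries, was 0.816, against 0.979 to 1.04 in the other 5 libraries. The liver label was borne out by miR-122-5p, which took 49.9% to 57.1% of the listed counts in each of the 6 libraries. The first principal component of all 12 libraries held 30.2% of the variance, and on it every Hezuo library lay on one side and every Bama library on the other.

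At normal temperature miR-204 was higher in Hezuo livers on both arms of its hairpin, and miR-184 was lower. Of 460 entries tested, 17 (3.70%) passed an adjusted p below 0.05 in edgeR's quasi-likelihood test with Benjamini-Hochberg adjustment. Of these, 12 (2.61%) were higher and 5 (1.09%) lower in Hezuo. At an unadjusted p below 0.05 there were 93 entries, 52 higher and 41 lower. The 3 Hezuo libraries lay wholly above or wholly below the 3 Bama libraries in all 17 called entries and in 102 of the 460 tested (22.2%), 63 of them higher (13.7%) and 39 lower (8.48%). Without Hezuo normal 3, and likewise without Bama normal 3, 4 entries passed, the 3 miR-204 entries and miR-184. The median log2 difference over all tested entries was 0.05 with TMM scaling, -0.09 with total listed counts and 0.19 with upper quartile scaling. The split of calls followed that shift. It was 12 higher and 5 lower with TMM, 7 and 15 with total counts, and 25 and 2 with the upper quartile.

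**Figure D1:**
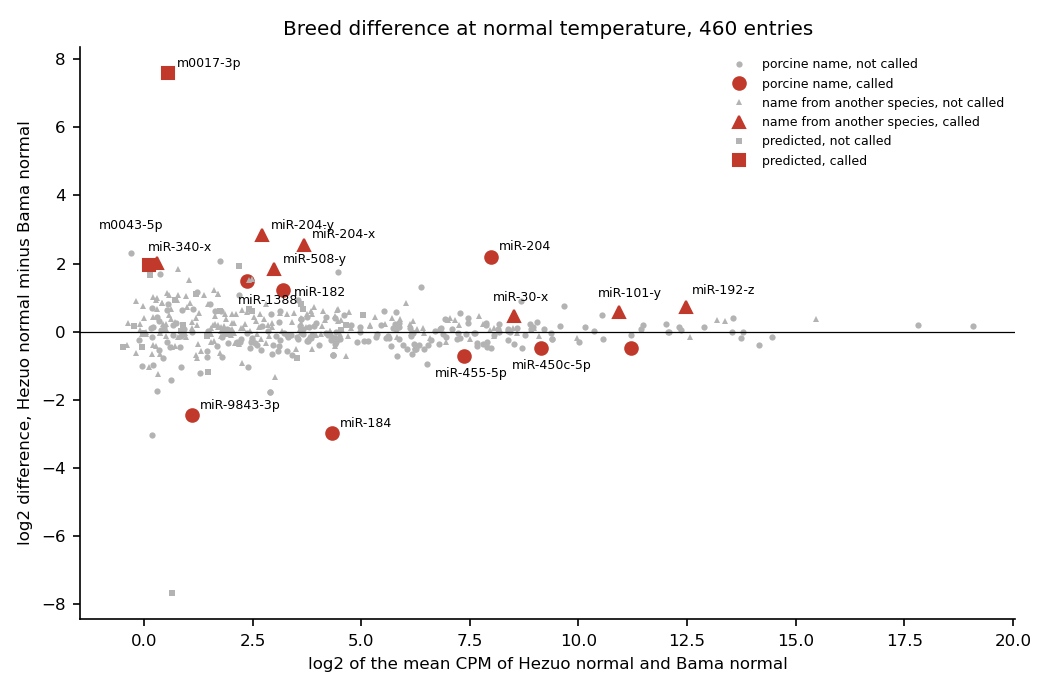
Log2 difference between Hezuo and Bama at normal temperature (y axis) against the log2 of the mean CPM of both groups (x axis) for the 460 entries tested, with the 17 called entries in red and 16 of them named. MiR-204 and miR-184 lie far from 0 at middle levels, the called abundant entries lie close to 0, and the 2 points beyond 7 in size are predicted miRNAs without a count in one breed, whose fitted values depend on the prior count.

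MiR-204 lies within the calcium channel gene TRPM3 on chromosome 1 in the pig annotation (Sscrofa11.1) and is known from the eye, the kidney and, in rodents, pancreatic beta cells, where it represses insulin expression through the transcription factor MAFA. It stood at 415, 488 and 348 CPM in the Hezuo livers, against 93.8, 70.8 and 107 CPM in the Bama livers. Every Hezuo liver was above every Bama liver, and the lowest Hezuo value was over 3 times the highest Bama value. MiR-204 averaged 417 ± 69.7 CPM in Hezuo and 90.4 ± 18.2 CPM in Bama (SD, n = 3 each), a 4.61-fold difference (log2 difference 2.21, SE 0.25, adjusted p = 0.000417).

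The 24-nt form miR-204-x had 25.4, 25.3 and 15.2 CPM in Hezuo, against 3.19, 3.09 and 4.92 CPM in Bama. It was 5.87-fold higher in Hezuo (log2 difference 2.55, SE 0.42, adjusted p = 0.00376), again without overlap. MiR-204-y, the strand of the opposite arm, had 11.98, 12.9 and 9.93 CPM in Hezuo, against 2.66, 1.55 and 0.648 CPM in Bama. It was 7.13-fold higher in Hezuo (log2 difference 2.83, SE 0.45, adjusted p = 0.00316). The opposite arm made up 2.58% ± 0.121 of the counts of both miR-204 strands in Hezuo and 1.77% ± 1.08 in Bama (SD, n = 3 each), so its share ranged more widely among the Bama livers, in which it rests on 5 to 20 counts. MiR-211-z, which shares the seed of miR-204 and differs from it at 1 of the 22 bases compared, averaged 0.680 CPM in Hezuo and 0.263 CPM in Bama and was too low to be tested. All 3 miR-204 calls held under all 12 alternative settings and with each of the 6 libraries left out in turn.

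The breed difference in miR-204 also passed in the livers under cold, which may come from the same animals. MiR-204 had 428, 232.5 and 336 CPM in the cold Hezuo livers, against 34.5, 56.7 and 38.6 CPM in the cold Bama livers (log2 difference 2.94, SE 0.26, adjusted p = 2.3e-05). The log2 difference under cold was 3.97 for miR-204-x (adjusted p = 0.000257) and 3.22 for miR-204-y (adjusted p = 0.00147). The change of the breed difference with temperature, cold minus normal, was 0.74 for miR-204 (adjusted p = 0.892), 1.41 for miR-204-x (0.776) and 0.38 for miR-204-y (0.998), and none of these passed.

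**Figure D2:**
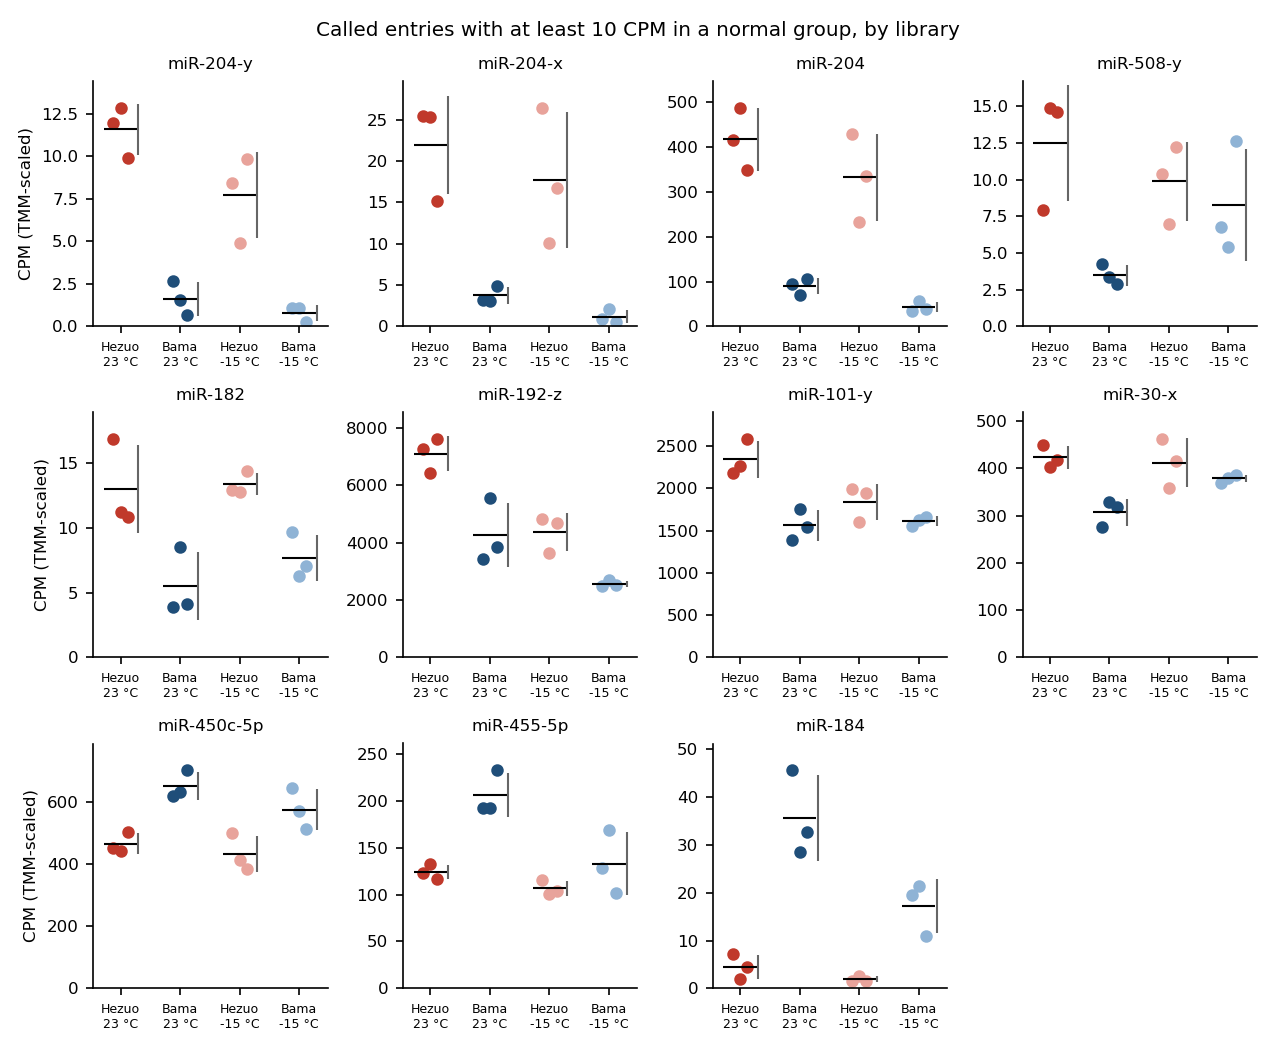
TMM-scaled CPM (y axes, from 0) in each of the 12 libraries for 11 of the 12 called entries whose mean reached 10 CPM in Hezuo or Bama at 23 °C; points are libraries, horizontal lines are group means and vertical lines the SD (n = 3), with Hezuo left of Bama at each temperature. In every panel the 3 Hezuo livers at 23 °C lie wholly above or wholly below the 3 Bama livers at 23 °C, and the miR-204 and miR-184 panels show the same order at -15 °C.

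MiR-184, encoded on chromosome 7 and best known from the epithelium of the cornea and lens, was the entry with the lowest called log2 difference. It had 7.09, 2.03 and 4.43 CPM in the Hezuo livers (58, 21 and 33 counts), against 45.8, 28.5 and 32.8 CPM in the Bama livers (344, 221 and 253 counts). All Hezuo livers were below all Bama livers, and the means were 4.52 ± 2.53 CPM in Hezuo and 35.7 ± 8.99 CPM in Bama (SD, n = 3 each). The log2 difference was -2.99 (SE 0.40, adjusted p = 0.000954). Under cold it was -3.18 (adjusted p = 0.000714), with 1.502, 2.58 and 1.62 CPM in Hezuo and 19.5, 21.4 and 10.9 CPM in Bama. The call held under all 12 alternative settings and with each library left out.

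MiR-9843-3p, whose gene lies within the sphingomyelin synthase gene SGMS2 on chromosome 8, was lower in Hezuo at a low level. It had 8, 6 and 3 counts in the Hezuo livers and 22, 36 and 26 in the Bama livers, without overlap. The log2 difference was -2.45 (SE 0.48, adjusted p = 0.0135), and under cold it was -2.26 (adjusted p = 0.011). The adjusted p was 0.0511 without Bama normal 3 and 0.0608 without Hezuo normal 3.

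The other lower entries described differed by less. MiR-455-5p, from a hairpin within the collagen gene COL27A1 and known from cartilage and from brown fat in mice, had 123, 133 and 117 CPM in Hezuo, against 192.9, 192.3 and 233 CPM in Bama (log2 difference -0.73, SE 0.16, adjusted p = 0.023). Its groups did not overlap at normal temperature, but they did under cold, where the log2 difference was -0.32 (adjusted p = 0.355). The opposite arm, miR-455-3p, had a log2 difference of -0.75 (adjusted p = 0.217) at 2.58 CPM in Hezuo and 4.34 CPM in Bama. MiR-455-5p no longer passed with upper quartile scaling (adjusted p = 0.0586), with forms of the same first 16 nt summed (0.0543), or without Bama normal 3 (0.102), Hezuo normal 1 (0.0984), Hezuo normal 2 (0.0589) or Hezuo normal 3 (0.0816).

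MiR-450c-5p had 452, 442.5 and 506 CPM in Hezuo, against 620.1, 633 and 706 CPM in Bama, without overlap (log2 difference -0.48, SE 0.12, adjusted p = 0.0455). It lay just inside the threshold. It passed in 6 of 12 alternative settings and in none of the 6 fits with a library left out (0.0548 to 0.201).

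MiR-450c-5p belongs to a run of miRNA genes on the X chromosome, with MIR450A, MIR450B and MIR542 as neighbours in the annotation, and miR-424 and miR-503, counted with it here, act on cell cycle genes. Of 10 entries tested from this cluster, 0 had a positive difference and the median was -0.42, beside 250 positive of 460 and a median of 0.05 over all entries. The summed level was 771 to 851 CPM in Hezuo and 1063 to 1150 CPM in Bama, without overlap. Sums of several other lists described below did not overlap either. MiR-450c-5p was the only one of the 10 to pass. MiR-542-3p had 76.9, 67.9 and 72.4 CPM in Hezuo, against 102.4, 100.2 and 104.5 CPM in Bama, and stood at -0.50 (adjusted p = 0.055). MiR-450a stood at -0.38 (adjusted p = 0.055), and because it differs from miR-450c-5p at 1 base the division of tags between them is uncertain. Under cold miR-450a passed at -0.54 (adjusted p = 0.011) and miR-542-3p at -0.53 (adjusted p = 0.0433), while miR-450c-5p did not pass.

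A second X-linked run, MIR532 with MIR362 and MIR500 as neighbours, also had negative differences. None of its 6 tested entries had a positive difference, and the median was -0.76, with 0 passing at normal temperature. MiR-532-5p was at -0.48, miR-362 at -1.04 and miR-500-3p at -1.41 (each adjusted p = 0.055), and under cold miR-532-5p passed at -0.67 (adjusted p = 0.0117). With upper quartile scaling 2 of the 10 entries of the miR-450 cluster and 1 of the 6 of the miR-532 cluster turned positive. The porcine entries placed on the X chromosome include members of both runs, so their count is not separate from those above. Of these X entries, 19 of 23 tested were negative, with a median of -0.33. Without overlap 9 were lower, beside 21 of 186 on other chromosomes and 8.48% of all 460 tested. Of those 186, 107 were negative, with a median of -0.05. Under cold 15 of the 23 were negative, with a median of -0.15, beside 117 of the 186 on other chromosomes, with a median of -0.09. The X median at normal temperature kept its sign under all 4 scalings. The sex of the pigs is not given, and its part in these values was not tested.

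Among the entries higher in Hezuo, 3 were long forms of abundant liver miRNAs. MiR-192 is a liver and kidney miRNA whose gene lies beside MIR194A on chromosome 2. Its 24-nt form miR-192-z had 7279.5, 6429.6 and 7630.5 CPM in Hezuo, against 3446, 5554 and 3856 CPM in Bama, without overlap (1.66-fold, log2 difference 0.73, SE 0.16, adjusted p = 0.0218). Under cold the log2 difference was 0.77 (adjusted p = 0.0117). The shorter forms did not pass. The 23-nt miR-192-x was at 0.36 (adjusted p = 0.174) and the 21-nt miR-192 at -0.15 (adjusted p = 0.605).

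The balance between the miR-192 forms differed as well. Within the 3 forms, miR-192-z made up 8.99% ± 0.254 in Hezuo and 6.32% ± 0.712 in Bama (SD, n = 3 each), and miR-192-x made up 64.3% ± 0.911 in Hezuo and 58.7% ± 2.30 in Bama. The 21-nt form made up 26.7% ± 1.16 in Hezuo and 35.02% ± 2.97 in Bama. None of these shares overlapped between the breeds. Together the 3 forms took 7.08% to 7.68% of the listed counts in Hezuo and 6.18% to 8.14% in Bama. Summed, they had a log2 difference of 0.27 (adjusted p = 0.303). The call on miR-192-z was also lost with total listed counts (adjusted p = 0.0644), with only the 6 libraries compared (0.0935) and without Bama normal 1 (0.13), Bama normal 3 (0.103), Hezuo normal 1 (0.0731) or Hezuo normal 3 (0.108). With a replicate block in the fit it did not pass either (adjusted p = 0.0535).

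MiR-101, known for repressing the histone methyltransferase EZH2, has copies within RCL1 and JAK1. Its 23-nt form miR-101-y had 2180.3, 2259 and 2587 CPM in Hezuo, against 1389, 1758 and 1540.0 CPM in Bama, without overlap (1.499-fold, log2 difference 0.58, SE 0.12, adjusted p = 0.0135). The 21-nt miR-101 was at 0.39 (adjusted p = 0.0643), and its groups did not overlap either, at 12405 to 15392 CPM in Hezuo and 9853 to 11052 CPM in Bama. Unlike miR-192, the summed miR-101 forms passed, at 0.44 (adjusted p = 0.0474). Under cold miR-101-y was at 0.19 (adjusted p = 0.48) with overlapping groups. The change with temperature, -0.39, did not pass (adjusted p = 0.766). MiR-101-y was lost with total listed counts (adjusted p = 0.0727), with only the 6 libraries compared (0.0773), and without Bama normal 1 (0.118), Bama normal 3 (0.0962) or Hezuo normal 3 (0.108).

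MiR-30-x is a form of miR-30a-5p with 2 further bases, from a family that regulates fibrosis genes. It had 450.3, 403 and 417 CPM in Hezuo, against 275, 328 and 317.5 CPM in Bama (1.38-fold, log2 difference 0.47, SE 0.12, adjusted p = 0.0437). MiR-30a-5p itself was at 0.24 (adjusted p = 0.175), and under cold miR-30-x was at 0.12 (adjusted p = 0.705). The call held in 4 of 12 alternative settings and, of the 6 fits with a library left out, only without Hezuo normal 2 (0.0548 to 0.206 in the other 5).

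Whether longer forms took a larger share in Hezuo was then asked of all porcine entries for which the table held at least 1 longer entry with the same first 16 nt, with at least 200 counts of the group per normal library. There were 69 such groups, and the share of longer entries was on average higher in Hezuo in 51, without overlap in 11, and lower without overlap in 3. The limit of 200 counts was set on the whole group, so in some groups the longer entries rested on very few counts. For miR-381-3p, for example, their share averaged 0.0189% in Hezuo and 0.0102% in Bama. In 7 of the 69 a longer entry carried the name of another miRNA or of a predicted one, so that the share can be a ratio of different miRNAs. These included 3 of the 11, those of let-7g, miR-103 and miR-141, and for miR-141 the only longer entry was miR-200-y. In the 62 groups under 1 name, a set chosen after seeing the data, the share was higher in Hezuo in 45. Without overlap it was higher in 8, 7 of them those of miR-101, miR-192, miR-194a-5p, miR-27b-3p, miR-30a-5p, miR-320 and miR-542-3p. It was lower without overlap in 3, those of miR-139-5p, miR-181a and miR-423-3p. Names were compared by number, and only for the longer entries. Relatives such as miR-450a and miR-450c-5p can thus still fall in 1 group, where the share can be a ratio of different miRNAs. The miR-27b-3p group held 5 different sequences. For miR-192 the longer forms made up 74.6%, 73.1% and 72.3% in Hezuo, against 62.1%, 68.1% and 64.7% in Bama.

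For miR-194a-5p the longer share was 3.61% ± 0.364 in Hezuo and 2.85% ± 0.368 in Bama (SD, n = 3 each). Under cold the share was also higher in Hezuo in 51 of the 69 groups and in 46 of the 62. These included all 8 that were higher without overlap at normal temperature under 1 name, and none of the 3 that were lower. The median share over the 69 groups in a library was 2.59% to 3.05% in Hezuo and 2.47% to 2.89% in Bama, which overlap. Groups of forms in 1 library share its size selection and adapter ligation, so they are not independent of each other, and no test was made over them.

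**Figure D3:**
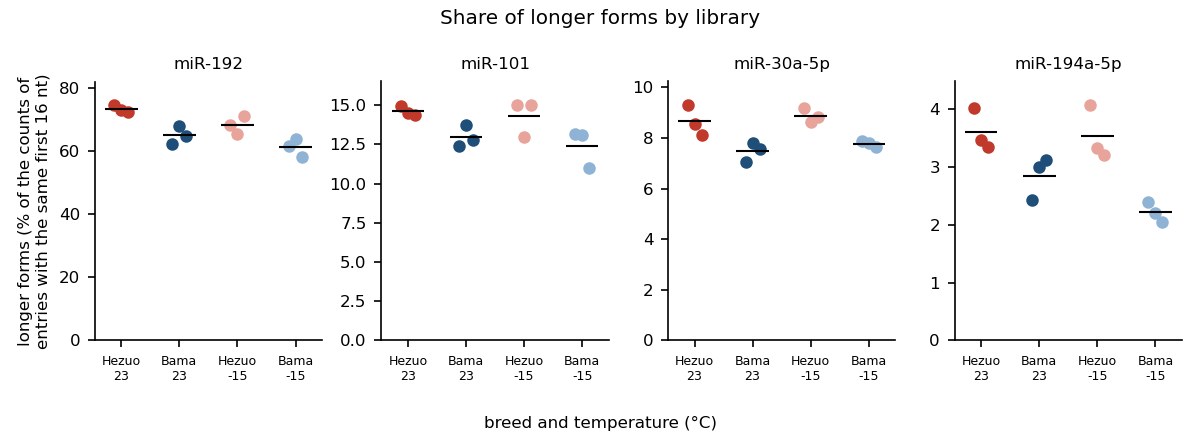
Share of longer forms (y axes, percent of the counts of entries with the same first 16 nt) in each of the 12 libraries for 4 miRNAs, with Hezuo left of Bama at each temperature (°C); points are libraries and lines are group means. For each of the 4 the 3 Hezuo livers at 23 °C lie above the 3 Bama livers at 23 °C, with miR-192 at 72.3% to 74.6% in Hezuo and 62.1% to 68.1% in Bama.

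The direction of the difference was also counted by the class of the entry. Of all 460 tested, 250 were positive, 2.61% were called higher and 1.09% lower. Of 199 tested entries under names from other species, 134 had a positive difference (median 0.19), and 7 were called higher (3.52%) and 0 lower. Of those 199, 87 shared their first 16 nt with a shorter porcine entry, with 4 called higher. Of 234 tested entries under porcine names, 97 were positive (median -0.07), and 3 were called higher (1.28%) and 5 lower (2.14%). Of 27 tested predicted entries, 19 were positive (median 0.21) and 2 were called higher (7.41%). With so few calls per class, these shares were not compared by a test. The sign of the porcine median turned with upper quartile scaling, to 0.05. How the authors divided tags among these classes is not stated in the sources used here.

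MiR-508-y was higher in Hezuo at a moderate level. Its human counterpart belongs to an X-linked cluster that is mainly active in testis. It had 7.95, 14.9 and 14.6 CPM in the Hezuo livers, against 4.26, 3.35 and 2.85 CPM in the Bama livers, without overlap (3.58-fold, log2 difference 1.84, SE 0.36, adjusted p = 0.0135). Under cold it had 10.4, 6.98 and 12.2 CPM in the Hezuo livers, against 6.75, 5.43 and 12.6 CPM in the Bama livers. These overlap, and the log2 difference under cold was 0.26 (adjusted p = 0.812). The change of the breed difference with temperature was -1.58 (adjusted p = 0.766) and did not pass. The adjusted p at normal temperature was 0.0962 without Bama normal 3 and 0.0608 without Hezuo normal 3.

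Entries named for neighbours of miR-508 in that human cluster, chosen after their values were seen, stood at 1.53 for miR-507-y (adjusted p = 0.0586), 1.85 for miR-507-z (0.055) and 1.52 for miR-506-z (0.112). Under cold they stood at -0.07, -0.37 and 0.08. None of these passed at either temperature.

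MiR-182, clustered with MIR183 and MIR96 on chromosome 18 and known from sensory cells and for repressing the transcription factor FOXO1, had 16.9, 11.2 and 10.9 CPM in Hezuo, against 3.86, 8.51 and 4.14 CPM in Bama (2.35-fold, log2 difference 1.23, SE 0.31, adjusted p = 0.0446). Its groups did not overlap at either temperature, and under cold the log2 difference was 0.80 (adjusted p = 0.204). Its cluster partners did not pass, miR-183 at 0.82 (adjusted p = 0.321) and miR-96-5p at 0.26 (adjusted p = 0.761). MiR-182 was lost with total listed counts (adjusted p = 0.0591), with only the 6 libraries compared (0.0996) and without Bama normal 1 (0.163), Bama normal 3 (0.122), Hezuo normal 1 (0.145) or Hezuo normal 3 (0.0816). A fit with a replicate block also ended its call (adjusted p = 0.068).

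Below 10 CPM, 4 further entries were higher in Hezuo. The predicted entry m0017-3p had 23, 25 and 27 counts in the Hezuo livers at normal temperature and 9, 51 and 14 under cold, and 0 counts in all 6 Bama livers. Pooled over the group it stood at 2.89 CPM in Hezuo, while a count of 0 over the Bama group allows up to 0.130 CPM (3 counts), so it was at least 22.1-fold higher in Hezuo (adjusted p = 0.0197). Such a floor covers counting error only. The adjusted p was 0.0581 without Bama normal 1, 0.0962 without Bama normal 3 and 0.0608 without Hezuo normal 3. A search at normal temperature asked for a minimum count in every library of one breed and no count in the other. It found only m0017-3p, and entries with fewer counts per library were not searched.

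MiR-1388 had 67, 76 and 54 counts in Hezuo and 18, 27 and 17 in Bama (2.81-fold, log2 difference 1.49, SE 0.31, adjusted p = 0.0148), and under cold the log2 difference was 0.78 (adjusted p = 0.196). The call did not hold without Bama normal 1 (adjusted p = 0.0999), without Bama normal 3 (0.102) or Hezuo normal 3 (0.0608). MiR-340-x differs from miR-340 at 2 of 22 bases and had 23, 17 and 11 counts in Hezuo and 3, 6 and 2 in Bama (log2 difference 2.01, SE 0.48, adjusted p = 0.0342). MiR-340 itself, at 183 ± 29.5 CPM in Hezuo and 126 ± 9.03 CPM in Bama (SD, n = 3 each), was at 0.53 (adjusted p = 0.0826) and passed under cold at 0.88 (adjusted p = 0.011). The predicted entry m0043-5p had 11, 22 and 13 counts in Hezuo and 4, 4 and 2 in Bama (log2 difference 1.97, SE 0.50, adjusted p = 0.0455), and it passed under cold at 1.71 (adjusted p = 0.0432). In each of these 3 entries the breeds did not overlap. MiR-340-x did not pass without Bama normal 1 (adjusted p = 0.13), without Bama normal 3 (0.103), without Hezuo normal 1 (0.11) or without Hezuo normal 3 (0.0608), nor with limma-voom (0.0535) or with forms of the same first 16 nt summed (0.0949). The call on m0043-5p ended without any 1 of the 6 libraries (0.0548 to 0.123) and with total listed counts (0.0502), no filter (0.0591), a filter at a mean of 10 counts (0.055), limma-voom (0.0778) or only the 6 libraries compared (0.0773). A replicate block in the fit ended the calls on miR-340-x and m0043-5p (each adjusted p = 0.0535).

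The miRNAs that make up most of the liver pool did not pass. MiR-122-5p, which supports cholesterol and fatty acid synthesis in hepatocytes, took 51.4%, 52.3% and 57.1% of the listed counts in Hezuo, against 54.5%, 49.9% and 56.2% in Bama. The means were 53.6% ± 3.04 in Hezuo and 53.5% ± 3.26 in Bama (SD, n = 3 each; two-sided exact permutation p = 1). MiR-148a-3p, a repressor of the LDL receptor, took 22.8% ± 1.55 in Hezuo and 21.98% ± 2.71 in Bama (SD, n = 3 each; two-sided exact permutation p = 0.7). The 10 most abundant entries together took 90.5% ± 0.767 in Hezuo and 90.3% ± 0.108 in Bama (SD, n = 3 each; two-sided exact permutation p = 1). The adjusted p was 1 for each of these 3 shares, and 3 libraries against 3 cannot give a p below 0.1. In the fit across all entries the log2 difference was 0.16 for miR-122-5p (SE 0.13, adjusted p = 0.511) and 0.20 for miR-148a-3p (SE 0.11, adjusted p = 0.342).

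The rest of the 10 most abundant entries included miR-143-3p of smooth muscle and stellate cells at -0.41 (adjusted p = 0.187) and miR-21-5p, which is raised in liver injury, at -0.19 (adjusted p = 0.755). MiR-26a stood at 0.00 (adjusted p = 0.989), miR-126-3p of endothelium at -0.02 (adjusted p = 0.945) and miR-122-x, a longer form of miR-122-5p, at 0.31 (adjusted p = 0.225).

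Lists of miRNAs by function, family, cluster or cell type are described by counts and medians, beside 250 positive of 460 tested and a median of 0.05 over all entries. Of all 460 tested, 17 (3.70%) were called. The liver-enriched list had 16 of 22 tested entries positive and a median of 0.32, with miR-192-z as its 1 called member. Its tested entries under names from other species were all positive, from 0.19 to 0.73. Those under porcine names went both ways, from -0.57 for miR-885-3p to 2.06 for miR-194b-5p. Of all tested entries under names from other species, 134 of 199 were positive. MiR-194b-5p, whose gene lies beside MIR215 within IARS2, had 2.32, 7.16 and 6.98 CPM in Hezuo, against 1.20, 1.42 and 1.30 CPM in Bama (log2 difference 2.06, adjusted p = 0.055). Its groups did not overlap, and under cold it passed at 2.97 (adjusted p = 0.0113). Its neighbour miR-215, which has the seed of miR-192, was at 0.61 (adjusted p = 0.274).

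The medians of the lists for metabolism lay near that of all entries. The median was 0.01 for lipid and cholesterol metabolism (18 of 35 positive), -0.06 for glucose and insulin (10 of 25) and -0.04 for hypoxia (9 of 20), each with 0 called. For brown fat and thermogenesis it was 0.10 (18 of 32), with miR-182 higher and miR-455-5p lower. The sign of these medians turned with the scaling, as did those of the miR-10, miR-29 and miR-30 families. Sums for lipid and cholesterol metabolism were 776591 to 976532 CPM in Hezuo and 741257 to 759466 CPM in Bama, without overlap. Those for glucose and insulin, 29122 to 32705 CPM in Hezuo and 33500 to 40763 CPM in Bama, did not overlap. Nor did those for hypoxia, 3856 to 4044 CPM in Hezuo and 4197 to 4362 CPM in Bama. The sums for brown fat and thermogenesis overlapped. The let-7 family had 7 of 15 positive (median -0.15), the miR-10 family 13 of 18 (0.12), the miR-29 family 2 of 5 (-0.06) and the miR-30 family 9 of 13 (0.09, with miR-30-x called). The miR-17 and miR-92 clusters had 15 of 18 positive with a median of 0.22 and 0 called. The miR-183 cluster had 3 of 3 positive (median 0.82), with miR-182 called.

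Markers of other cell types differed in level between libraries, and fewer cells of a type cannot be told apart from less RNA per cell in bulk liver. The erythroid list (miR-451, miR-144, miR-486 and forms) had 5 of 5 tested entries positive, a median of 1.09 and 0 called, with sums of 632 to 1892 CPM in Hezuo and 440.2 to 995 CPM in Bama. MiR-144 had 85.3, 209 and 60.1 CPM in Hezuo, against 64.7, 34.4 and 43.4 CPM in Bama (log2 difference 1.32, adjusted p = 0.281), so Hezuo normal 2 was the highest and the groups overlapped. The imprinted DLK1-DIO3 cluster had 12 of 13 positive, a median of 0.68 and 0 called. Its sums were 217 to 1168 CPM in Hezuo and 197 to 529 CPM in Bama, and its most abundant entry, miR-381-3p, had 432, 987 and 185 CPM in Hezuo, against 434, 165.5 and 256 CPM in Bama. Hezuo normal 2 was again the highest.

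The stellate, fibroblast and smooth muscle list had 4 of 16 positive, a median of -0.23 and 0 called, and its sums did not overlap, at 18396 to 21287 CPM in Hezuo and 22177 to 30176 CPM in Bama. MiR-143-3p, 1 of the 10 most abundant entries, weighs most in these sums and did not pass (-0.41, adjusted p = 0.187). Of the 16, 3 were lower without overlap, beside 8.48% of all 460 tested. Myeloid markers had 3 of 10 positive (median -0.38), with sums of 556 to 832 CPM in Hezuo and 633 to 1037 CPM in Bama. Lymphoid markers had 4 of 5 positive (median 0.40), with sums of 456 to 529.5 CPM in Hezuo and 352 to 428 CPM in Bama, which do not overlap. Sums without overlap were not particular to the lymphoid and stellate lists, as those for glucose and insulin and for hypoxia also show. Endothelial markers had 3 of 4 positive (median 0.12), biliary and other epithelial 4 of 8 (0.02), muscle 1 of 3 (-0.02) and nervous and endocrine 5 of 12 (-0.07), with 0 called in any cell type list. The signs of these last 4 medians turned with the scaling. Not all entries of these lists are distinct. In the nervous and endocrine list miR-9, miR-9-1 and miR-9-2 shared 1 value (-0.70), as did miR-129a-5p and miR-129b (0.37). In the stellate, fibroblast and smooth muscle list miR-199a-3p and miR-199b-3p both stood at -0.225. The part of these cell types in the breed differences above was not tested.

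**Figure D4:**
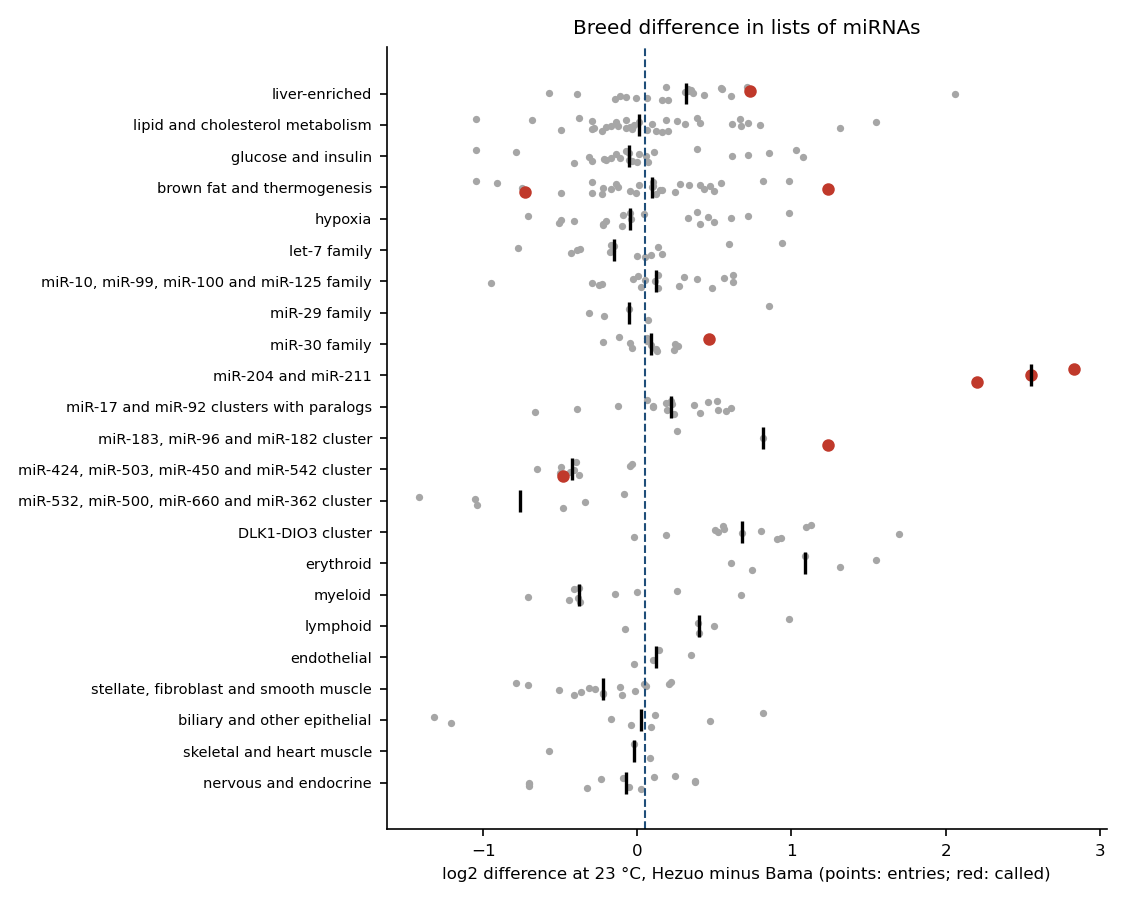
Log2 difference between Hezuo and Bama at 23 °C (x axis) for the tested entries of 23 lists of miRNAs (rows); grey points are entries that did not pass, red points are called entries, black bars are list medians and the dashed line is the median of all 460 tested entries, 0.05. The miR-204 entries lie between 2.21 and 2.83, the 2 X-linked clusters lie left of 0, and most other lists straddle the dashed line.

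Set beside the libraries under cold, the breed difference had the same sign for all 17 called entries, while 67.4% of the 460 tested kept their sign. The Hezuo and Bama livers under cold were without overlap in the same direction for 13 of the 17. All 17 were already without overlap at normal temperature. Of the 102 tested entries without overlap at normal temperature, 35 were so in the same direction under cold (7.61% of all 460). The 4 of the 17 that overlapped under cold were miR-455-5p, miR-101-y, miR-30-x and miR-508-y. Under cold 20 entries (4.35%) passed, 11 higher (2.39%) and 9 lower (1.96%) in Hezuo, and 93 were without overlap (20.2%), 48 higher (10.4%) and 45 lower (9.78%). Of the 17 called at normal temperature, 8 were called under cold (47.1% of the calls at normal temperature and 40% of those under cold). They were miR-204, miR-204-x, miR-204-y, miR-192-z, m0017-3p, m0043-5p, miR-184 and miR-9843-3p.

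The 12 entries called only under cold were not shown to differ between temperatures. The test of the change of the breed difference with temperature called 0 of 460 entries by edgeR (0.00%), with 25 at an unadjusted p below 0.05 and 0.766 as the smallest adjusted p. MiR-490, whose gene lies within the muscarinic receptor gene CHRM2, is an example from that set. It had 4.40, 4.45 and 1.21 CPM in Hezuo at normal temperature, against 10.1, 10.2 and 14.5 CPM in Bama (log2 difference -1.77, adjusted p = 0.055), and it passed under cold at -2.11 (adjusted p = 0.023).

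**Figure D5:**
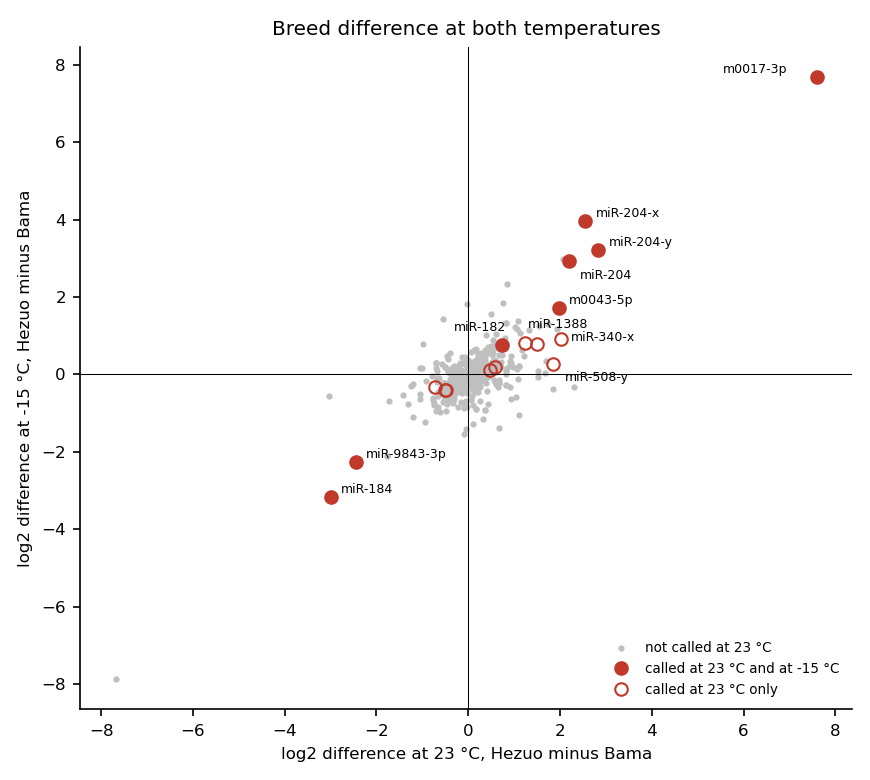
Log2 difference between Hezuo and Bama at 23 °C (x axis) and at -15 °C (y axis) for the 460 entries tested; filled red points passed at both temperatures, open red circles at 23 °C only, grey points were not called at 23 °C. All 17 red symbols have the same sign on both axes, and miR-508-y lies near 0 on the y axis at 0.26.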

How the data were processed

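Small RNA was sequenced from pig liver in 12 libraries. Per the labels' protocols, RNA of 18 to 30 nt was selected on a gel, ligated to adapters and amplified. The deposited table, per the file headers, holds raw tag counts and TPM for each library. The authors' TPM are proportional to the counts within a library, with a count of 0 written as 0.01, and served only to derive library totals. Listed counts were 84.3% to 88.2% of those totals. The sources used here name no aligner, database, build or earlier filter. The table had 2 empty lines. Another entry with identical counts in every library existed for 47 entries. Of 303 porcine entries, 266 were matched by name to a gene of Sscrofa11.1, used for names, chromosomes and neighbours within 10 kb. Sequences are those of the deposited table.

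Counts were tested with edgeR 4.0.16 (R 4.3.3): TMM, filterByExpr by group, robust quasi-likelihood F tests, 1 coefficient per group over all 12 libraries, and Benjamini-Hochberg adjustment over 460 entries. CPM use TMM-adjusted library sizes, SE come from the F statistics, and fold changes are fitted. The biological coefficient of variation was 25%. Replicates differed by far more than counting error (chi-squared per degree of freedom at least 36.9). Alternatives were other scalings and filters, DESeq2 1.42.0, limma-voom (limma 3.58.1), other sets of libraries or entries, a replicate block and each library left out.

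Entries named are up to 15 called per direction with at least 10 CPM in a normal group, up to 5 below it, the 10 most abundant, and other arms, length forms and seed relatives. Predicted entries are named without the opening word of their table names. MiR-490, miR-194b-5p and the entries of lists and clusters are outside this rule and were chosen after their values were seen. Members and lists were chosen with earlier results of these data known. Of the 17 called entries, 1 that was lower in Hezuo is counted but not reported here.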

Additional observations from a re-analysis of the deposited data

How the results depend on the processing

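Against 17 calls at normal temperature, there were 27 with upper quartile scaling, 38 with DESeq2 (18 higher, 20 lower), 32 without miR-122-5p in the fit, 10 with only the 6 libraries compared and 11 with the replicate block. Without 1 library the count ran from 4 to 24, with 4 without Bama normal 3 or Hezuo normal 3, 8 without Bama normal 1, 11 without Hezuo normal 1 and 24 without Bama normal 2. The causes were not tested. The 20 calls under cold became 13 with forms of the same first 16 nt summed, which leaves 335 entries, and 7 to 21 without 1 library, with 7 without Bama cold 1 and 12 without Bama cold 3 or Hezuo cold 1. The test of change with temperature gave 0 calls in all alternatives run. The difference in the share of miR-122-5p, 0.0982 percentage points, lay between -1.72 and 1.44 with 1 library left out, that of miR-148a-3p, 0.863, between -0.345 and 2.33, and that of the 10 most abundant entries, 0.220, between -0.222 and 0.463. The log2 difference of each of the 17 called entries kept its direction in all settings run. Deviations from the group means correlated between same-numbered pigs of the breeds at -0.134, -0.280 and -0.0645. Between pigs of different number the correlations ran from -0.151 to 0.253. With 3 pigs per group these values cannot settle whether the numbers pair the pigs, which the labels do not state. Among the calls that the replicate block ends are miR-182 and miR-450c-5p (each adjusted p = 0.068), miR-30-x (0.068), and miR-192-z, miR-340-x and m0043-5p (each 0.0535). The alternatives on longer forms were chosen after seeing the data. Depth limits the low entries: miR-340-x, m0043-5p and miR-9843-3p rest on 2 to 8 counts per library in the lower breed.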

Other observations

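The predicted entry m0018-3p, chosen after its values were seen, was the mirror of m0017-3p. It had 0 counts in all 6 Hezuo livers, against 2, 0 and 70 counts in the Bama livers at normal temperature and 0, 40 and 41 under cold, and it did not pass (adjusted p = 0.365 at normal temperature). Counts were thus present in 4 of 6 Bama livers, and of those 4 only Bama normal 1 had as few as 2.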
